A study of Mus musculus with 405 samples.

Results

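Heat shock and chaperone genes were followed through a transcriptional screen of mouse cortical cultures. The genes were the 10 with the symbols Hspa1a, Hspa1b, Hsph1, Dnajb1, Hspa8, Hspb1, Hsp90aa1, Bag3, Hspa5 and Hspd1, and they were taken from each expression table by symbol, without regard to their values. All 10 were found among the 23893 genes of a count table for the fungicide pyraclostrobin. The screen table of 13304 genes held 9 of them, and Hspb1 was not analysed there.

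Chaperones bind unfolded proteins and help them reach or regain their shape. Under proteotoxic stress, the factor HSF1 binds heat shock elements in promoters and switches on the inducible Hsp70 genes Hspa1a and Hspa1b together with their cochaperones. The endoplasmic reticulum (ER) and the mitochondrion each have chaperones of their own, and neurons are known to mount a weaker inducible Hsp70 response than glia.

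Primary cortical cells were prepared at embryonic day 15 by the labels, a little later than the study's text states, from C57BL/6J dams mated with CAST/EiJ males, and every group shared this hybrid background. On day 7 in vitro the cultures received a chemical or vehicle for 24 h, each chemical at 1 concentration that was not cytotoxic, and polyadenylated RNA was sequenced. The screen held 393 libraries, of which 49 were vehicle and 344 came from 297 chemicals. A single library was available for 282 chemicals, 13 had 2 libraries, diethyltoluamide had 4 and topotecan, a topoisomerase inhibitor at 0.3 µM, had 32. Concentrations were 10 µM for 257 chemicals, 1 µM for 26, 0.3 µM for 2, 0.1 µM for 9 and 0.01 µM for 3. The count table held 4 libraries of 0.1 µM pyraclostrobin and 4 of vehicle, with totals of 2409623 to 7833440 counts. The pyraclostrobin libraries and vehicle libraries 1 and 2 were of like depth, and vehicle libraries 3 and 4 were deeper (7833440 and 7082405 counts). One pyraclostrobin library of the count table also stands in the screen, so both tables' values for this chemical are not independent.

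The cultures hold neurons together with other cells, and an antimitotic agent was given before exposure. Neuron markers were abundant in all 8 libraries of the count table, with a summed level of 8027 to 8833 CPM (counts scaled to the library's total) in vehicle and 3735 to 4839 CPM in pyraclostrobin. Sums of markers use the plain total. CPM of the heat shock and chaperone genes use the total adjusted by TMM, so the scales of sums and genes differ. Of the 9 vascular and fibroblast genes listed, only the endothelial gene Cldn5 was at 0 in every library. The list summed to 83.1 to 189 CPM in vehicle. In bulk RNA of this kind, fewer cells of a type and less RNA per cell cannot be told apart.

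Promoter sequences are shown for genes that differ in their stress motifs and that carry the results described further on. They are from RefSeq on GRCm38.p6, each being the 250 bases before the start, read 5′ to 3′ along the gene's own strand. Of the 10 genes, 8 had an entry, and Hspa8 and Hsp90aa1 did not. Capitals in the first 4 mark the heat shock element letters GAANNTTC or TTCNNGAA, which each read the same on both strands. Hspa1b, inducible Hsp70, is on chr17:34959239-34959488 (−). Hspb1, the small heat shock protein, is on chr5:135887669-135887918 (+). Hsph1, an Hsp110 nucleotide exchange factor, is on chr5:149636316-149636565 (−). Bag3, a cochaperone that links Hsp70 and small heat shock proteins to autophagy, is on chr7:128523333-128523582 (+), and its window held no match. Capitals in Hspa5, on chr2:34771840-34772089 (+), mark an ER stress element, searched on both strands as CCAAT, 9 bases of any kind and CCACG.
Hspa1b: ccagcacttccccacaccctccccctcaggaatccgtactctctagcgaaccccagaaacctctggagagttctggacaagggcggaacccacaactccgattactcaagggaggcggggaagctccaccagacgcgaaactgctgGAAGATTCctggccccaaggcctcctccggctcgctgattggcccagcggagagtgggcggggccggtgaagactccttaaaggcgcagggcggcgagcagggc
Hspb1: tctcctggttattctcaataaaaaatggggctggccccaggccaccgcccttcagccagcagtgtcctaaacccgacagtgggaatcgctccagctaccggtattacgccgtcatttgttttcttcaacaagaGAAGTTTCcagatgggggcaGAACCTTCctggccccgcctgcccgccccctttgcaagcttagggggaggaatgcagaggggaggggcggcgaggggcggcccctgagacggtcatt
Hsph1: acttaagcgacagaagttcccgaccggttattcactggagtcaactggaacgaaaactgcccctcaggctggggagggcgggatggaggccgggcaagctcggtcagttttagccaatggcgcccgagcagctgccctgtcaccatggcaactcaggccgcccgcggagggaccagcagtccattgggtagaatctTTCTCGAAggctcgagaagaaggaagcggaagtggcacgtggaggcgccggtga
Bag3: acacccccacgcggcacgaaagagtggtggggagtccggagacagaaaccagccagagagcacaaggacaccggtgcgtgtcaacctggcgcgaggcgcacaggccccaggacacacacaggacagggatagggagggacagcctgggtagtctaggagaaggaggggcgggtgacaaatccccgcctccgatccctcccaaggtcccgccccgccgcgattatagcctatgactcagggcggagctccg
Hspa5: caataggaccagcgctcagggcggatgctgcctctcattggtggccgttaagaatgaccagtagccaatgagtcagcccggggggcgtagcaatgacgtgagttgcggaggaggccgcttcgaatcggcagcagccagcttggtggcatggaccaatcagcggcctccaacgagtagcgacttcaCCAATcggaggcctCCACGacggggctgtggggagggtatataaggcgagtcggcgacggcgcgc

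The first base of the Hspa1b element lies 104 bases before the start, and Hspa1a holds 1 element at the same distance. Hspb1 has 2 elements, beginning 117 and 97 bases before the start. The Hsph1 element lies 54 bases before the start shown. Hspd1 had 3 overlapping matches, which begin 144 to 134 bases before 1 of its 2 starts. Neither Bag3, Dnajb1 nor Hspa5 had a match in this window. Over 32851 promoters of the same length, 12.8% held either form of the element. The spaced ER stress element began 65 bases before the Hspa5 start and was found in 0.113% of those promoters. These are matches of letters only.

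Hspa1a and Hspa1b are neighbours on chromosome 17 (mm9, minus strand), at 35106144 to 35109069 and 35093381 to 35096183, with 9960 bases between them. Their coding sequences of 1926 and 1929 bases are 99.6% identical, with 8 differing bases and an identical run of 638 bases. How reads that fit both genes were counted is not given in the sources used here, so the split between the pair is uncertain in every value below.

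Per kilobase of the longest coding transcript, the genes spanned a wide range in vehicle cultures. Hspa5 (BiP), the ER Hsp70, was highest at 220 ± 35.7 CPM per kb (SD, n = 4). The constitutive cytosolic Hsp70 Hspa8 came next at 141 ± 21.8, followed by Hsp90aa1, a cytosolic Hsp90, at 93.4 ± 5.47 and Hsph1 at 57.0 ± 13.1 CPM per kb. Hspd1, the mitochondrial chaperonin Hsp60, was at 34.2 ± 4.49 and Dnajb1, a J-domain partner of Hsp70, at 30.2 ± 4.90 CPM per kb, and this pair did not separate beyond its spread. At the low end stood Hspa1a at 3.34 ± 0.934, Bag3 at 2.68 ± 0.839, Hspa1b at 1.80 ± 0.244 and Hspb1 at 0.504 ± 0.272 CPM per kb. Hspa1a and Bag3 likewise did not separate. Vehicle cultures thus carried much RNA of Hspa5 and Hspa8 and little of Hspa1a, Bag3, Hspa1b and Hspb1.

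The count table compares pyraclostrobin, an inhibitor of mitochondrial complex III, with vehicle. Bag3 rose 3.88-fold and Hspa1b rose 2.18-fold. These were 2 of the 9 genes that passed the filter on low counts, against 21.3% of all 12324 genes tested (2631 genes, 1495 higher and 1136 lower). The abundant cytosolic, ER and mitochondrial chaperones did not pass the threshold in either direction. Groups that did not overlap, with pyraclostrobin higher, were seen for 15.7% of all genes tested, and with pyraclostrobin lower for 20.9%, so separation of 4 libraries from 4 is common in this table.

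Bag3 was at 30.9, 16.3, 28.1 and 22.96 CPM in pyraclostrobin libraries 1 to 4. In vehicle libraries 1 to 4 it was at 10.2, 6.42, 5.39 and 5.85 CPM. Every pyraclostrobin library was above every vehicle library, and vehicle 1 was the highest of its group. The difference was 1.96 on the log2 scale (SE 0.28; edgeR adjusted p = 0.000398), higher in 4 of 4 libraries, and it held without any 1 of the 8 libraries.

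Hspa1b was at 9.81, 10.5, 10.6 and 11.1 CPM with pyraclostrobin. Vehicle libraries 1 to 4 had 4.55, 4.41, 5.39 and 5.85 CPM. The groups did not overlap, and the spread within each was small beside the gap. The log2 difference was 1.12 (SE 0.21; edgeR adjusted p = 0.0017). The near-identical Hspa1a overlapped between groups, at 9.43, 13.4, 13.9 and 11.1 CPM with pyraclostrobin and 13.7, 7.22, 9.08 and 9.16 CPM in vehicle. Vehicle library 1 was within the pyraclostrobin range, and the log2 difference was 0.39 (SE 0.25; edgeR adjusted p = 0.253). With only the shallower vehicle libraries 1 and 2, a comparison added after seeing the data, both calls were lost at the 0.01 threshold. Bag3 then had a log2 difference of 1.61 (edgeR adjusted p = 0.0156) and Hspa1b one of 1.28 (edgeR adjusted p = 0.0227).

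Hspb1, which binds unfolding proteins without using ATP, was counted too rarely for the filter of 10 counts in 4 libraries. It had 9, 6, 10 and 6 counts with pyraclostrobin and 2, 1, 1 and 4 counts in vehicle. Scaled for depth, every pyraclostrobin library (2.17 to 3.64 CPM) was above every vehicle library (0.142 to 0.700 CPM). The 31 counts of 9891208 against 8 of 20588058 give a ratio of 8.07, with an exact 95% interval of 3.63 to 20.3 that covers counting error only. Fitted without the filter, the log2 difference was 2.63 (edgeR adjusted p = 0.0024).

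Hsp90aa1 was at 247, 226, 212 and 229 CPM with pyraclostrobin. In vehicle it was at 330, 289, 309 and 298 CPM. All 4 pyraclostrobin libraries lay below all 4 vehicle libraries, yet the log2 difference of −0.33 (SE 0.11) missed the threshold with an edgeR adjusted p of 0.0351. DESeq2 placed it past the threshold (adjusted p = 0.00356).

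Hspa8 was at 219, 291, 286 and 292 CPM against 414, 316, 301 and 316 CPM in vehicle. The groups did not overlap, but pyraclostrobin 1 lay well below and vehicle 1 well above the rest of their groups, and the log2 difference was −0.22 (SE 0.15; edgeR adjusted p = 0.297). Hsph1 was at 148, 185, 168 and 193 CPM against 292, 191, 195 and 190 CPM. Its groups overlapped, with vehicle 1 far above the other libraries, and the log2 difference was −0.23 (edgeR adjusted p = 0.335). Without vehicle 1 the log2 differences shrank to −0.028 for Hsph1 and −0.074 for Hspa8. Dnajb1 was at 49.4 to 87.1 CPM against 58.6 to 84.0 CPM, with a log2 difference of 0.18 (edgeR adjusted p = 0.515).

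Among the organelle chaperones, Hspa5 was at 578, 534, 571 and 518 CPM with pyraclostrobin and 714, 541, 509 and 541 CPM in vehicle. These overlapped, with a log2 difference of 0.02 (edgeR adjusted p = 0.908). Hspd1 was at 75.1 to 111 CPM against 73.5 to 97.7 CPM and overlapped too (log2 difference 0.18; edgeR adjusted p = 0.412). In the screen, where 1 of these pyraclostrobin libraries stands beside 49 vehicle libraries, Bag3 was at 0.56 and Hspa1b at −0.14 on its log2 scale, both inside the vehicle range.

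**Figure D1:**
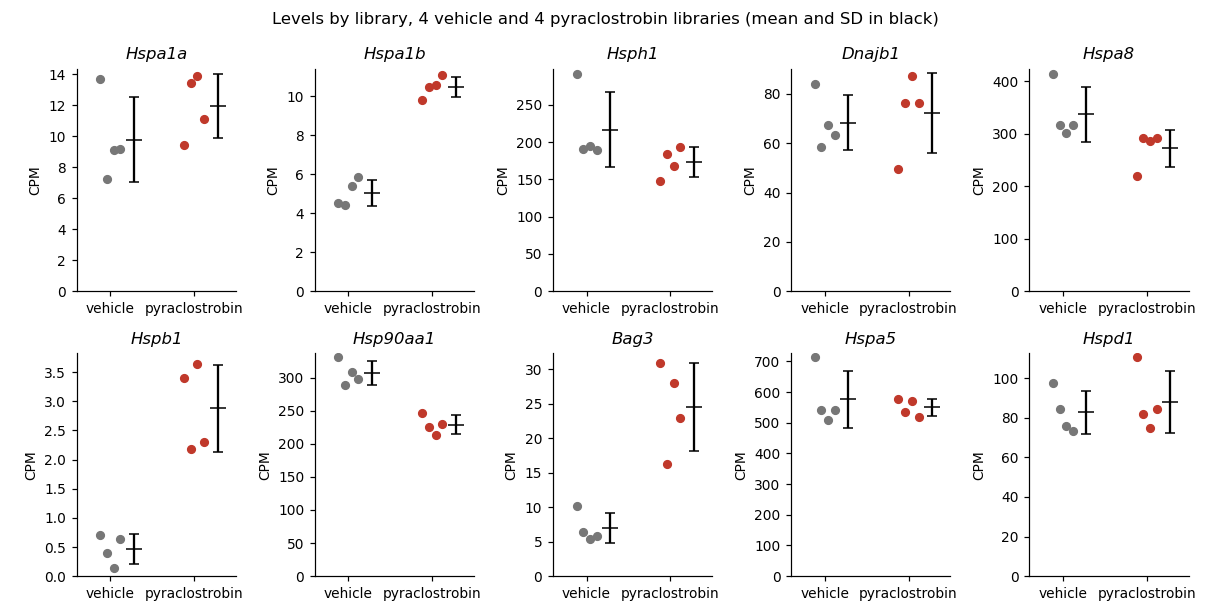
Levels of the 10 genes in CPM (linear axes from 0) in each of the 4 vehicle and 4 pyraclostrobin libraries, with the mean and SD in black. Bag3, Hspa1b and Hspb1 were higher in every pyraclostrobin library than in any vehicle library, Hsp90aa1 and Hspa8 were lower, and the other 5 overlapped.

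Markers of other cell types moved with the same groups. Their sums are again scaled to the plain library total, without TMM. The summed vascular and fibroblast level was 1244 to 1742 CPM with pyraclostrobin against 83.1 to 189 CPM in vehicle, and all 6 tested genes of this list rose. Microglial markers summed to 80.1 to 143 CPM against 21.3 to 29.4 CPM and rose in 6 of 6. Astrocyte markers summed to 1022 to 3530 CPM against 615 to 979 CPM, with 1 of 6 past the threshold, and the oligodendrocyte lineage list to 203 to 329 CPM against 99.3 to 197 CPM, with 2 higher and 1 lower of 6. Neuron markers fell in 7 of 9. The part of these cell types in the changes of Bag3, Hspa1b and Hspb1 was not tested.

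In the wider chaperone network, cytosolic genes were called about as often as other genes. Of 35 cytosolic chaperones and cochaperones, 4 rose and 3 fell, against 12.1% higher and 9.22% lower over all genes tested, with a median log2 difference of −0.11 beside −0.00 over all genes tested. The risers were Hspb8, the small heat shock protein partner of Bag3, at 2.95 (SE 0.49), alpha B-crystallin (Cryab) at 2.70 (SE 0.26), Hspb6 at 1.43 (SE 0.35) and the Hsp110 relative Hspa4l at 0.94 (SE 0.13), all on the log2 scale. Hsbp1, which binds heat shock factors, fell by 0.85 on the log2 scale as 1 of 3 genes tested in its list. None of the 8 CCT chaperonin subunits and none of 22 ER chaperones and unfolded protein response genes passed edgeR's test at 0.01. Of 15 mitochondrial chaperones and proteases, Hspa9 (mortalin, the mitochondrial Hsp70) rose, at 0.99 (SE 0.24) on the log2 scale.

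In the screen, values were log2 levels centred for each gene, so they compare libraries and not genes. Each chemical was given by the median of its libraries and set beside the 49 vehicle libraries. Over all 13304 genes, 2.07% of gene and chemical pairs lay above the highest vehicle library and 2.69% below the lowest. The 9 genes gave 48 pairs above and 91 below, of which 51 below belonged to Hspa5 alone.

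Of the 9 genes, Hspa1b, Bag3 and Hspa1a varied most. The SD over 297 chemicals was 0.505 for Hspa1b, 0.452 for Bag3 and 0.421 for Hspa1a, against a median of 0.261 over all genes and 0.0847 for Hsp90aa1. Vehicle libraries spread nearly as much for these genes (SD 0.478, 0.440 and 0.437), so most of that spread was also present without a chemical. Hspa1b was above the vehicle range in 14 chemicals and below it in 0, and 13% of all genes had as many above. Hspa1a was above in 7 and below in 1. This order depended on the limit, since without the highest and lowest vehicle library of each gene Hspa1a was above in 57 and Hspa1b in 25, and with 2.5 vehicle SD in 9 and 5. Bag3 was above in 2 and below in 3.

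Hspa1a was lowest at −2.04 (dimethoate), at the median 0.04 and highest at 1.92 (chlorothalonil), followed by butachlor at 1.37 and parathion at 0.99. Its vehicle libraries ran from −1.35 through a median of −0.26 to 0.82. Hspa1b was lowest at −1.63 (Propoxycarbazone-Na), at the median −0.04 and highest at 2.21 (chlorothalonil), then 1.35 in butachlor and 1.20 in TCMTB. Vehicle ran from −2.05 through −0.22 to 0.72, so both Hsp70 genes shared their 2 highest chemicals, well clear of vehicle. Bag3 followed another order, from −2.01 in pyriproxyfen to 1.25 in fenpyroximate, 1.14 in trifloxystrobin and 0.86 in pirimiphos-methyl, beside vehicle libraries of −1.37 to 1.03.

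For Hsph1 the highest chemicals were chlorothalonil (0.66), butachlor (0.59) and dicofol (0.42), and the lowest was emamectin benzoate (−0.73), beside a vehicle range of −0.33 to 0.36. Dnajb1 was highest in chlorothalonil (0.58), thiophanate (0.47) and diazinon (0.42) and lowest in chloroneb (−0.42), with 11 chemicals above and 18 below vehicle. Hspa8 was highest in butachlor (0.43), oxyfluorfen (0.30) and phosalone (0.27) and lowest in spirodiclofen (−0.42). These cochaperones and constitutive Hsp70 thus shared 1 or both of their leading chemicals with the inducible pair.

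Hsp90aa1 left the vehicle range in 3 chemicals only, above it in chlorothalonil (0.40) and below it in 2, with its lowest value in famoxadone (−0.26). Its next highest chemicals, dimethyl phthalate (0.20) and bendiocarb (0.19), were inside that range. Hspd1 was highest in captan (0.40), methoxychlor (0.39) and flumioxazin (0.37) and lowest in cycloate (−0.43). The highest Hspa5 values were in cyfluthrin (0.38), acetochlor (0.36) and chlorothalonil (0.35), and the lowest was in naled (−0.38).

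**Figure D2:**
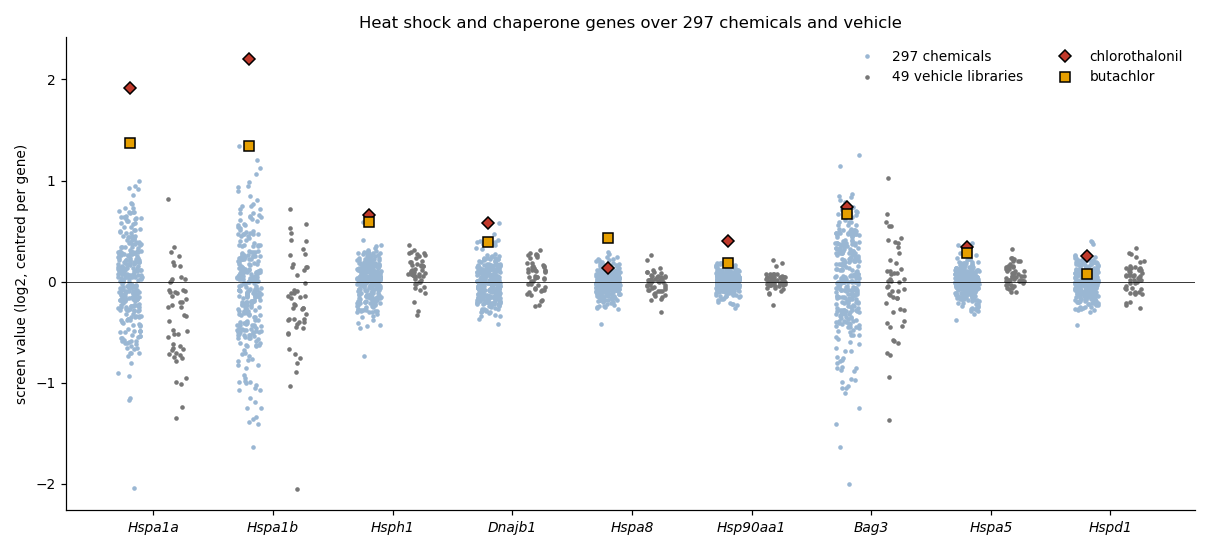
Screen values (log2, centred per gene) of the 9 genes for 297 chemicals (blue; medians of libraries) and 49 vehicle libraries (grey), with chlorothalonil (red diamonds) and butachlor (orange squares) marked. Chlorothalonil and butachlor stood above the vehicle libraries for Hspa1a (1.92 and 1.37) and Hspa1b (2.21 and 1.35), while Hspa8 and Hsp90aa1 stayed in a narrow band.

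Most chemicals had none of the 9 genes above vehicle (260 of 297), 33 had 1 and 2 had 2. Chlorothalonil, a chlorinated nitrile fungicide that reacts with thiols, had 6, and butachlor, a chloroacetamide herbicide, had 5. Over all genes the shares above the vehicle range were 1.75% for chlorothalonil and 1.83% for butachlor. Butachlor had a single library at 10 µM, with no replicate check. Its 5 genes were Hspa1a (1.37), Hspa1b (1.35), Hsph1 (0.59), Dnajb1 (0.39) and Hspa8 (0.43). Oxyfluorfen (Dnajb1 and Hspa8) and TCMTB (Hspa1a and Hspa1b) had 2 each, where 4.27% and 1.44% of all genes lay above. On the low side, famoxadone had 4 of the genes below vehicle and prochloraz 3, where 7.37% and 1.34% of all genes lay below.

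Chlorothalonil had 2 libraries at 1 µM, which allowed a fit against the 49 vehicle libraries. This fit, made for each of the 15 chemicals with more than 1 library, was added after the values had been seen, and it uses the same libraries as the counts above. In it, 6 of 9 genes rose, against 1.47% of all genes called in either direction (196 genes). Hspa1a was at 2.10 and 1.74 and Hspa1b at 2.27 and 2.15 in libraries 1 and 2. Both libraries were far above every vehicle library. The log2 difference was 2.26 for Hspa1a (SE 0.33; limma adjusted p = 9.32e-07) and 2.40 for Hspa1b (SE 0.40; limma adjusted p = 2.55e-05).

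Hsph1 was at 0.79 and 0.52, and Dnajb1 at 0.80 and 0.36, in the chlorothalonil libraries. Again both libraries were above the vehicle range, the first by more. Their log2 differences were 0.57 (SE 0.11; limma adjusted p = 0.00105) and 0.52 (SE 0.12; limma adjusted p = 0.00984). Hsp90aa1 was at 0.38 and 0.42, above all vehicle libraries, and differed by 0.39 (SE 0.05; limma adjusted p = 1.62e-07). Hspa5 was at 0.45 and 0.25, so the second library lay inside the vehicle range, and differed by 0.28 (SE 0.08; limma adjusted p = 0.0412).

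Bag3 was at 0.72 and 0.76 with chlorothalonil, inside the vehicle range, and its log2 difference of 0.80 (SE 0.27) did not pass (limma adjusted p = 0.136). Hspd1 (0.25 and 0.26) and Hspa8 (0.11 and 0.16) did not pass either, with limma adjusted p of 0.328 and 0.378. With 1 of these libraries left out, the remaining library was assumed to vary like the other groups, here and for the chemicals that follow. Without chlorothalonil library 1 the called genes were 3 (Hspa1a, Hspa1b and Hsp90aa1). Hsph1, Dnajb1 and Hspa5 then had log2 differences of 0.43, 0.30 and 0.18 (limma adjusted p = 0.261, 0.728 and 0.773). Without library 2 they were 5, and Hspa5 lost its call (limma adjusted p = 0.0987).

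Beyond the 9 genes, 4 of 35 cytosolic chaperones and cochaperones rose with chlorothalonil, against 0.872% higher over all genes. Among them were the autophagy receptor Sqstm1 (0.91), the segregase Vcp (0.29) and Hsp90ab1 (0.25, all log2 differences). None of 3 heat shock factor, 8 CCT, 22 ER and 15 mitochondrial genes passed limma's test at 0.05. Astrocyte markers averaged −0.62 in chlorothalonil beside vehicle libraries of −0.74 to 0.57, and 2 of 6 fell (Gja1 and Slc1a3). Their part in the rise of the heat shock genes was not tested.

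Of the other 14 chemicals with more than 1 library, topotecan is described further on and 3 had calls. Adjusted p-values hold within a chemical and were not adjusted over the 15. Famoxadone, a complex III inhibitor at 10 µM, changed 5 of 9 genes, against 11.6% of all genes called. Bag3 was at 0.40 and 1.06 and rose by 0.78 (SE 0.27; limma adjusted p = 0.0445). The first library was inside and the second above the vehicle range. The other 4 genes fell, with log2 differences of −0.50 for Hsph1 (limma adjusted p = 0.000755), −0.27 for Hsp90aa1 (0.000153), −0.24 for Hspa8 (0.01) and −0.23 for Hspa5 (0.0354). Hsph1, Hspa8 and Hsp90aa1 stayed called without library 1 and lost their calls without library 2. Bag3 and Hspa5 lost theirs without either, with limma adjusted p of 0.0569 and 0.817 for Bag3. Neuron markers fell in 9 of 9 with famoxadone, their mean being −0.58 beside vehicle libraries of −0.17 to 0.40, and their part in the falls was not tested.

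Fenamidone, another complex III inhibitor at 10 µM, changed 2 of 9 genes, against 16.1% of all genes. Bag3 was at 0.55 and 1.02, both inside the vehicle range, and rose by 0.84 (SE 0.27; limma adjusted p = 0.0211). Hsp90aa1 was at −0.20 and −0.24, the second just below vehicle, and its log2 difference was −0.23 (limma adjusted p = 0.00108). Bag3 lost its call without either library (limma adjusted p = 0.0538 and 0.564), and Hsp90aa1 without library 2 (limma adjusted p = 0.128). Neuron markers fell in 9 of 9 here too (mean −0.97), and their part was not tested. Prochloraz, an imidazole fungicide, changed 1 of 9, against 0.391% of all genes, with Hsph1 at −0.23 and −0.47 and a log2 difference of −0.44 (limma adjusted p = 0.0458) that lost its call without either library (limma adjusted p = 0.114 and 0.729). With prochloraz, 3 of 8 CCT subunits and 4 of 22 ER genes also fell, against 0.346% lower over all genes. So did 1 of 15 mitochondrial genes (Hspe1, −1.03) and 1 of 35 cytosolic genes (Dnaja2, −0.37, both log2 differences). No gene of these lists was called higher with prochloraz. The remaining 10 chemicals had none of the 9 past limma's threshold.

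Chemicals that share a target or a reactive group were compared with vehicle as classes, each chemical entering once. All comparisons with vehicle in the screen share the same 49 control libraries. The 7 complex III inhibitors called 1 of 9 genes, against 20.5% of all genes. Hsph1 was at 0.13 in azoxystrobin, 0.12 in cyazofamid, −0.41 in famoxadone, −0.17 in fenamidone, −0.00 in fluoxastrobin, −0.43 in pyraclostrobin and −0.46 in trifloxystrobin. Thus 3 of the 7 were below the lowest vehicle library (−0.33), and the class differed by −0.27 (SE 0.07; limma adjusted p = 0.00443).

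Bag3 was at 0.73 in famoxadone, 0.79 in fenamidone, 0.56 in pyraclostrobin and 1.14 in trifloxystrobin, but at −0.30 in azoxystrobin, −0.01 in cyazofamid and 0.03 in fluoxastrobin. The class therefore held 4 values of 0.56 or more and 3 of 0.03 or less, at doses of 0.1 to 10 µM. Beside the vehicle mean of −0.055, 6 of the 7 were above and 1 was below. Only trifloxystrobin was above the highest vehicle library (1.03), and the other values were inside the vehicle range. The log2 difference of the class was 0.47 (SE 0.18; limma adjusted p = 0.0572). With single libraries in place of chemical medians, Bag3 had a limma adjusted p of 0.02. In that fit 4 of the 9 genes were called, against 3589 of all 13304 genes. Azoxystrobin, famoxadone and fenamidone each entered it with 2 libraries. Leaving out azoxystrobin, cyazofamid or fluoxastrobin also brought Bag3 past the threshold (limma adjusted p = 0.018 to 0.0409) and Hsp90aa1 with it. These 3 had the lowest Bag3 of the class, so leaving out any of them raises the Bag3 difference of the class. Without famoxadone, fenamidone, pyraclostrobin or trifloxystrobin, 0 of the 9 genes were called higher. The 4 chemicals with higher Bag3 were also those with high vascular and fibroblast markers. The marker mean was 1.51 to 1.98 in them, 0.02 to 0.34 in the other 3 and −0.95 to 0.51 in vehicle. All 6 markers of this list rose and all 9 neuron markers fell in the class, and their part in the Bag3 values was not tested.

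The 4 complex I inhibitors called 0 of 9, against 5.83% of all genes by limma. Bag3 was at 1.25 in fenpyroximate, the highest of all 297 chemicals, and at 0.14 in pyridaben, 0.29 in rotenone and −0.32 in tebufenpyrad. Only fenpyroximate was outside the vehicle range, and it also had the highest vascular and fibroblast marker mean of the 4 (1.99). The class difference for Bag3 was 0.40 (SE 0.24; limma adjusted p = 0.382).

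In the complex III class 4 of 35 cytosolic genes rose and 4 fell, against 6.68% higher and 13.8% lower over all genes. Hspb8 (0.75), Hspb6 (0.61) and Cryab (0.61) were among those that rose, and Dnaja1, an Hsp40, was among those that fell (−0.24, all log2 differences). Hspa9 rose by 0.21 as the only 1 of 15 mitochondrial genes called. Hsbp1 fell by 0.19 as 1 of 3 heat shock factor genes. Xbp1, a factor of the unfolded protein response, fell by 0.21 as the only 1 of 22 ER genes called. None of 8 CCT subunits passed. In the complex I class 2 of 35 cytosolic genes fell, Dnaja1 (−0.29) and Hspa4 (−0.17), against 4.91% lower over all genes. Neuron markers fell in 8 of 9 in the same class, and their part in these values was not tested.

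**Figure D3:**
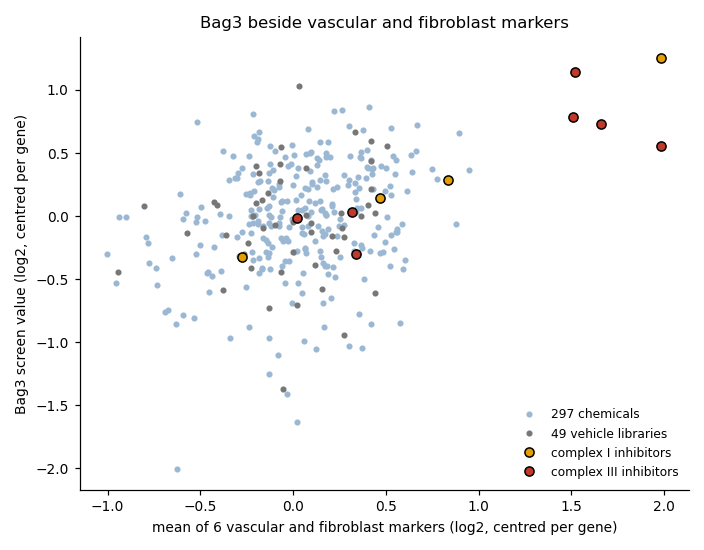
Bag3 screen value against the mean of 6 vascular and fibroblast markers (both log2, centred per gene) for 297 chemicals and 49 vehicle libraries, with complex I and III inhibitors marked. Fenpyroximate (1.99 and 1.25) and 4 complex III inhibitors lie at the upper right.

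The 10 thiol-reactive biocides had 0 of 9 genes past the threshold, against 0.00752% of all genes (1 gene by limma, and 1131 at an unadjusted p under 0.05). Within the class, Hspa1b ranged from −1.02 in metam-sodium hydrate to 2.21 in chlorothalonil, with TCMTB at 1.20 and methyl isothiocyanate at 0.99. The other 6 lay between −0.18 and 0.49, inside the vehicle range. The class difference was 0.63 for Hspa1b (limma adjusted p = 0.368) and 0.54 for Hspa1a (limma adjusted p = 0.418). The 4 dithiocarbamate fungicides also had 0 of 9, against 0.00752% of all genes (1 gene by limma, and 1017 at an unadjusted p under 0.05). Their Hspa1b values were 0.24 in mancozeb, 0.17 in maneb, 1.06 in metiram-zinc and 0.36 in thiram, and only metiram-zinc was above vehicle.

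**Figure D4:**
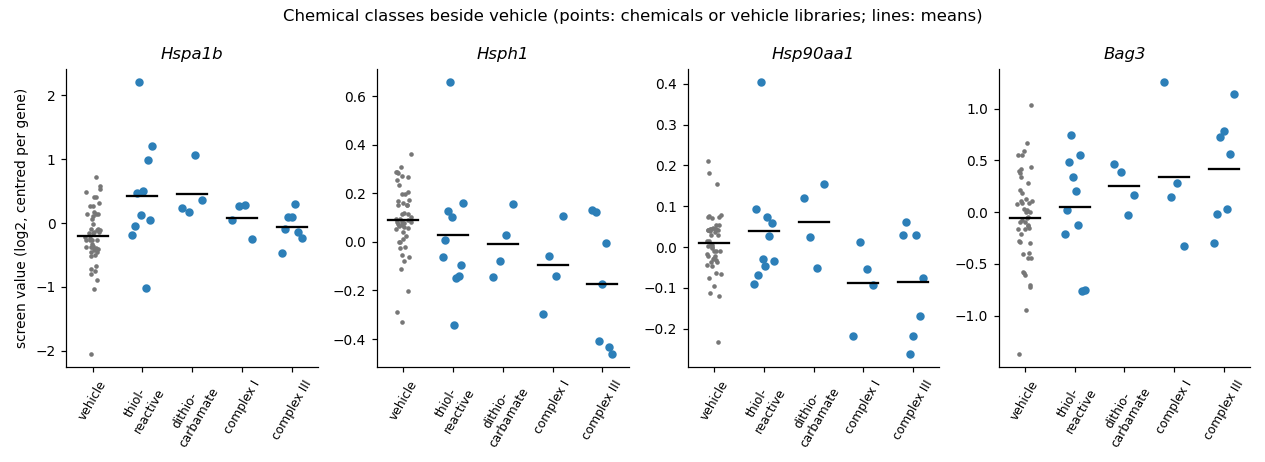
Screen values (log2, centred per gene) in the 4 chemical classes beside 49 vehicle libraries, each point a chemical or a vehicle library and lines the means. Chlorothalonil is the top thiol-reactive point for Hspa1b (2.21), and complex III inhibitors split into high and low points for Bag3 (−0.30 to 1.14).

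Of the 9 genes, Hspa5 was most often below the vehicle libraries. It was below the lowest vehicle library in 51 of 297 chemicals (17.2%), and 47 of these were at 10 µM, where 257 of the 297 chemicals were given. The median gene had 5 chemicals below, and 0.338% of genes had as many as Hspa5. Its vehicle libraries ran only from −0.10 through 0.06 to 0.32, and its chemicals from −0.38 through −0.00 to 0.38, so the departures were small. With a limit of 2.5 vehicle SD from the vehicle mean, 24 chemicals remained below.

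Set against vehicle as a whole, the 296 chemicals other than topotecan differed in 3 of 9 genes, against 5.6% of all genes. Hspa1a was higher by 0.36 (SE 0.065; limma adjusted p = 6.35e-05), Hspa5 lower by a log2 difference of −0.068 (SE 0.018; limma adjusted p = 0.00972) and Hsph1 by one of −0.081 (SE 0.026; limma adjusted p = 0.0449). This comparison was added after the values had been seen. Its Hsph1 call was lost with single libraries (limma adjusted p = 0.0635). Hspa1b did not pass, at 0.13 (limma adjusted p = 0.367). For Hspa1a the mean was −0.40 over the 32 topotecan libraries, close to −0.34 in vehicle. A batch effect left between vehicle and chemical libraries cannot be told apart here from an effect of the chemicals. It would also enter the other comparisons with vehicle.

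Topotecan blocks topoisomerase 1 and is known to lower expression of long genes. Of the 9 genes, 1 rose and 3 fell in the 32 topotecan libraries, against 45.8% of all genes called (6090 genes, median log2 difference 0.03). Hspa5 was lowest at −0.32, at the median −0.11 and highest at 0.12, against −0.10, 0.06 and 0.32 in vehicle. The ranges overlapped, but 17 of 32 topotecan libraries were below every vehicle library. The log2 difference was −0.18 (SE 0.024; limma adjusted p = 3.32e-10).

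Bag3 ran from −0.26 through 0.23 to 0.83 with topotecan and from −1.37 through −0.05 to 1.03 in vehicle. All topotecan libraries lay inside the vehicle range, and the mean was higher by 0.32 (SE 0.088; limma adjusted p = 0.00166). Hspa8 ran from −0.29 through −0.10 to 0.0013 against −0.30, −0.00 and 0.26, with a log2 difference of −0.10 (SE 0.022; limma adjusted p = 6e-05). Dnajb1 ran from −0.35 through −0.07 to 0.49 against −0.24, 0.06 and 0.32, with a log2 difference of −0.093 (SE 0.036; limma adjusted p = 0.028). Both overlapped widely. Hspa1a, Hspa1b, Hsph1, Hsp90aa1 and Hspd1 did not pass, with limma adjusted p of 0.114 to 0.993.

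One topotecan library stood apart for the heat shock genes. Hspa1a was at 1.78 in it and at most 0.31 in the other 31. Hspa1b was at 2.02 against at most 0.63. The same library was the highest of the 32 for Dnajb1 (0.49), Hsph1 (0.35) and Hspa5 (0.12), though not for Hspa8, Hsp90aa1, Bag3 or Hspd1. A fit without it, added after seeing the data, called the same 4 genes, with Hspa5 at −0.19, Bag3 at 0.31, Hspa8 at −0.10 and Dnajb1 at −0.11 on the log2 scale, and Hspa1a still did not pass (−0.13; limma adjusted p = 0.229).

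Among the lists, 14 of 22 ER genes fell with topotecan and 2 rose, against 20.9% lower and 24.9% higher over all genes, with a median log2 difference of −0.11. Examples were Sdf2l1 (−0.39), the stress sensor Atf6 (−0.35), Herpud1 (−0.23) and, rising, Edem1 (0.24). Of 8 CCT subunits 5 rose, the most being Cct5 by 0.16 and Cct3 by 0.15. Of 35 cytosolic genes 10 rose, close to the share over all genes, and 2 fell, with Hspa2 at −0.61, Cryab at 0.30, Dnaja4 at −0.29 and Ppid at 0.24. Hsf2 (0.20) and Hsbp1 (0.09) rose of 3 heat shock factor genes, and none of 15 mitochondrial genes passed limma's test at 0.05. Neuron markers fell in 8 of 9 and rose in 1, and astrocyte markers fell in 5 of 6. Their part in the chaperone changes was not tested.

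**Figure D5:**
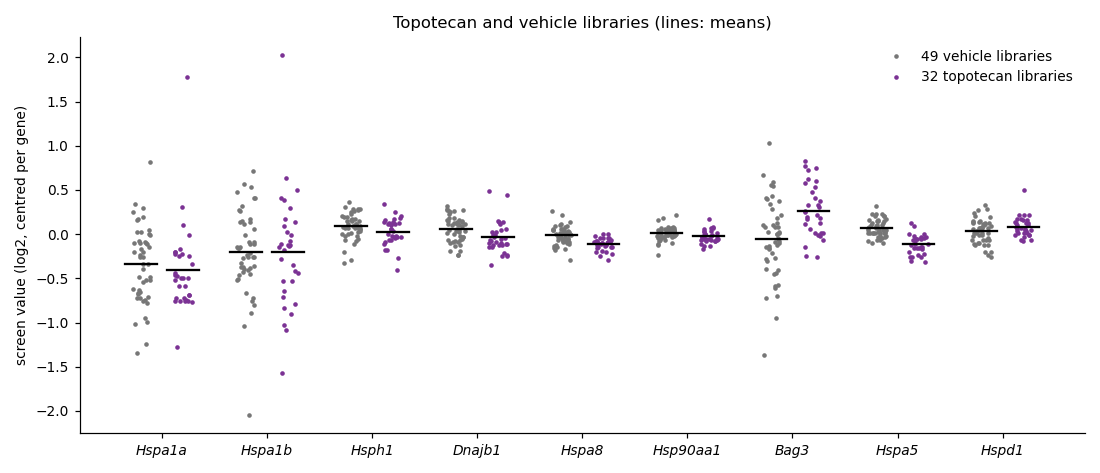
Screen values (log2, centred per gene) of the 9 genes in 32 topotecan and 49 vehicle libraries, with lines at the means. Hspa5 is shifted down (median −0.11 against 0.06), and a single topotecan library is far above the others for Hspa1a (1.78) and Hspa1b (2.02).

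Across the 297 chemicals, the 36 pairs of the 9 genes had Pearson correlations of −0.065 to 0.438, with a median of 0.143. These points share the median centring of each gene, batches and libraries, so the values are a description. The strongest pairs were Hspa8 with Hspa5 (r = 0.44), Hsph1 with Hspa5 (0.38), Hsph1 with Hspa8 (0.33) and Hsph1 with Hsp90aa1 (0.30). Hspa1a and Hspa1b correlated at only 0.26, and at 0.31 over the 49 vehicle libraries.

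For the 3 genes that varied most, the nearest other genes were weakly alike. Hspa1b was nearest to Rnf181 (r = 0.33), Aldoart1 (0.30) and Eno2 (0.28) over 297 chemicals. Bag3 was nearest to Vim (0.43), Sparc (0.42) and Abhd4 (0.41). Hspa1a was nearest to Slc2a3 (0.35), Kcna6 (0.34) and Paip2b (0.33). Bag3 had r = 0.34 with the mean of the vascular and fibroblast markers and −0.31 with that of the neuron markers. Hsp90aa1 (0.38), Hsph1 (0.37) and Hspa8 (0.29) were positively correlated with the neuron markers. Over the 49 vehicle libraries, Bag3 had r = 0.15 with the vascular and fibroblast markers and −0.20 with the neuron markers. There Hsp90aa1 (0.07) and Hsph1 (0.03) were hardly correlated with the neuron markers, and Hspa8 was at 0.38.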

How the data were processed

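Cultured mouse cortical cells were profiled by RNA sequencing after exposure to chemicals or vehicle. Per the labels and the study's methods, the authors ran TagDust on the reads, used TopHat for alignment to mm9, discarded ribosomal reads and aggregated reads over RefSeq exons by gene symbol. The deposited count table holds raw counts per gene. The screen table holds values on a log10 scale that the authors made from RPKM, without short genes and genes at 0 in many samples, by quantile normalization, median centring and removal of culture and sequencing batches with a mixed model. Screen values were multiplied to log2 here. Their depth is unknown, and a batch effect that the model left or removed would enter each value.

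Groups came from the labels. In the count table, columns were matched to groups by their headers, which give each pyraclostrobin library and a vehicle library a shared number; the study speaks of matched vehicle controls. Deviations of same-numbered libraries from their group means correlated over 0.1 in 3 of 4 pairs. The values were 0.377, 0.102, −0.029 and 0.162 for numbers 1 to 4, and only the libraries numbered 1 matched each other best. Genes with at least 10 counts in 4 libraries (12324) were fitted with edgeR 4.0.16 (TMM, quasi-likelihood, Benjamini-Hochberg threshold 0.01; the study itself used DESeq), with DESeq2 1.42.0 as an alternative, in R 4.3.3. Its standard errors were derived from the log2 difference and the F statistic. The screen was fitted with limma 3.58.1 (trend, threshold 0.05, adjusted over 13304 genes), with 1 value per chemical, the median over its libraries. The scripts were tested on simulated data. For pyraclostrobin the study gives sequencing in quadruplicate with 3 biological replicates, and elsewhere 4 sample replicates. Whether any of these libraries share a culture is not said. Where nothing says that samples came from separate cultures, p-values measure the spread between samples, which may be technical.

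Named genes were all 10 members, at most the 4 called genes of largest change per chaperone list (1 of them is not reported here), the 3 highest and 1 lowest chemicals per gene, chemicals with 3 or more genes above vehicle, the 4 classes, and the 3 nearest genes of the 3 most variable members. The members and lists were chosen with earlier results of these data known. A further count table, for sulforaphane with fenamidone, has columns that share 1 header name and was not used here. The authors' own comparison tables were not used. Promoters were from RefSeq GRCm38.p6 and gene positions and lengths from an mm9 annotation. Alternatives tried were other normalizations, filters, thresholds, gene sets, control groups, single libraries and left-out libraries or chemicals.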

Additional observations from a re-analysis of the deposited data

Results flagged for a closer look

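Within groups of 4 to 10 values, 65 sets of a gene and a group were examined for a value far from the others by Dixon's criterion, which chance meets in about 1 in 20 groups, and 8 met it. In the pyraclostrobin count table, vehicle library 1 was high for Hsph1, at 8.19 log2 CPM against a group median of 7.59, and for Hspa8, at 8.69 against 8.30. Pyraclostrobin library 1 was low for Hspa8, at 7.78 log2 CPM against 8.17.

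In the screen, chlorothalonil lay far above the other 9 thiol-reactive biocides for Hsph1 (0.66, class median −0.03), Dnajb1 (0.58, class median 0.0032) and Hsp90aa1 (0.40, class median −0.00). Maneb was apart from the other dithiocarbamates for Dnajb1 (0.40, class median 0.01), and famoxadone was below the other complex III inhibitors for Dnajb1 (−0.27, class median −0.03). No cause of these values was tested.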

How the results depend on the processing

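Of the values of single genes under an alternative, 473 kept direction and side of the threshold, 27 lost and 12 gained a call, and another 27 turned in sign, all of them in genes not called. With pyraclostrobin, 2631 genes were called, and 4301 at a threshold of 0.05, 666 with only vehicle libraries 1 and 2 and 1682 to 4052 when a library was left out (the lowest without vehicle 3, the highest without vehicle 1). The headers pair each pyraclostrobin library with a vehicle library by number, though 2 of 8 libraries matched their own number best; a fit with that pairing as a replicate block called 3135 genes and changed no member's call. Hspa5 turned to −0.066 without a filter, to −0.13 with the shallow vehicles and to between −0.043 and 0.17 when a library was left out.

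In the screen, testing variable genes only gave 1788 genes called for topotecan, 42 for complex I and 438 for complex III inhibitors, since fewer genes were tested. Leaving out a chemical gave 6 (without fenpyroximate) to 1222 for complex I, 1605 to 3148 for complex III, 0 to 1 for thiol-reactive and 1 to 8 for dithiocarbamate chemicals. Single libraries gave 3 and 13 genes for the latter classes, and other chemicals as controls 0 for the dithiocarbamates. At a threshold of 0.01 the counts were 80 for chlorothalonil, 862 for famoxadone, 1324 for fenamidone, 8 for prochloraz and 289 for all chemicals. Without either library they were 49 to 88 for chlorothalonil, 99 (without library 2) to 948 for famoxadone, 487 (without library 2) to 1442 for fenamidone and 7 to 33 for prochloraz. Without the highest and lowest vehicle library of each gene, 140 pairs lay above and 160 below.

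Signs turned as follows, and the cause was not tested. Against other chemicals the thiol-reactive class gave 0.011 for Hsph1, 0.027 for Dnajb1 and 0.050 for Hspa5, the dithiocarbamates −0.0053 for Hspa8, complex I 0.020 for Hspa5 and complex III −0.15 for Hspa1a. With single libraries they were 0.014 for Dnajb1 and 0.0052 for Hspa5 (thiol-reactive) and −0.028 for Hspa8 (dithiocarbamate). Leaving out a thiol-reactive chemical gave −0.0997 to 0.0032 for Dnajb1, −0.011 to 0.044 for Hsp90aa1 and −0.027 to 0.051 for Hspd1. Leaving out a dithiocarbamate gave −0.063 to 0.080 for Dnajb1, −0.077 to 0.057 for Hspa8 and −0.024 to 0.0725 for Hspa5, and leaving out a complex III inhibitor −0.0029 to 0.030 for Hspd1. Settings for sulforaphane with fenamidone were not run. Depth limits Hspb1 (1 to 10 counts a library), Hspa1a and Hspa1b in the count table, and 282 chemicals rest on 1 library.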
